A study of Mus musculus with 5 samples.

Results

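The retinoid genes described here are 10 genes of the retinoic acid pathway, chosen by symbol: the 6 retinoid receptor genes Rarb, Rara, Rarg, Rxrg, Rxra and Rxrb, the 3 retinaldehyde dehydrogenase genes Aldh1a1, Aldh1a2 and Aldh1a3, and the binding protein gene Crabp1. They are 10 of the 21031 genes that served as the background, all coding for protein and all with a curated RefSeq entry. All material was neuronal nuclei, sorted by the marker NeuN from the striatum of C57BL/6 mice aged 8 weeks and labelled as medium spiny neurons. Chromatin was immunoprecipitated for H3K4me3, H3K27me3, H3K27ac and RNA polymerase II (Pol II), with 1 library for each of the 4 antibodies and 1 input, so no value has a replicate and no test was possible. No genotype, treatment or number of animals is given in the sources used here.

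Retinoic acid is made from vitamin A by oxidation, first to retinaldehyde and then, by the Aldh1a enzymes, to the acid. The Crabp proteins carry it in the cell. In the nucleus it binds the retinoic acid receptors (RARs), which sit on DNA as heterodimers with the retinoid X receptors (RXRs). Rarb and Rxrg are known for their expression in the striatum, whereas the other receptors are found more widely. H3K4me3 marks promoters, H3K27ac marks active promoters and enhancers, Pol II marks transcribed or paused genes, and H3K27me3 is the mark of Polycomb repression.

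The promoter of Rarb is printed because it holds the textbook retinoic acid response element. Those of Rxrg, Aldh1a2 and Aldh1a1 are examples of differing CpG content. Among the retinoid genes CpG content also varied between genes with the same marks, as described below. Each printed stretch is the 250 bases before an annotated start, from RefSeq on GRCm38.p6, a later build than the mm9 of the regions. In Rarb (chr14:16575477-16575726, minus strand), capitals mark the paired hexamers of a direct repeat spaced by 5 bases. In Rxrg (chr1:167598112-167598361, plus strand), Aldh1a2 (chr9:71215539-71215788, plus strand) and Aldh1a1 (chr19:20601718-20601967, plus strand), capitals mark each CpG.
Rarb: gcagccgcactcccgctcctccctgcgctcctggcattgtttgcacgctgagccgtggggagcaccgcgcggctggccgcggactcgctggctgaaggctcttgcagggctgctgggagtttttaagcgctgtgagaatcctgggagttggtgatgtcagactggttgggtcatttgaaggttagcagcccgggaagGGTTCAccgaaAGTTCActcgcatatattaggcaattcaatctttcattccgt
Rxrg: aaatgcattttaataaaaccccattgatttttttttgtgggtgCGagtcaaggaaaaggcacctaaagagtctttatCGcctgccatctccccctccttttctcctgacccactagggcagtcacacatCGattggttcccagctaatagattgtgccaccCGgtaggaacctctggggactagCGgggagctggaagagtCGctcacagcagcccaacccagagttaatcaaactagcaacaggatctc
Aldh1a2: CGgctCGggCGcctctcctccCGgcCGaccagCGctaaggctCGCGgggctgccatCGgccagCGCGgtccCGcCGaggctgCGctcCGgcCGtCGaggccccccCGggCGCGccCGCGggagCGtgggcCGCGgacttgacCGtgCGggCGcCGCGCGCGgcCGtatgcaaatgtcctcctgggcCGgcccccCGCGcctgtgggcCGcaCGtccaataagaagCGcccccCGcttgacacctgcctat
Aldh1a1: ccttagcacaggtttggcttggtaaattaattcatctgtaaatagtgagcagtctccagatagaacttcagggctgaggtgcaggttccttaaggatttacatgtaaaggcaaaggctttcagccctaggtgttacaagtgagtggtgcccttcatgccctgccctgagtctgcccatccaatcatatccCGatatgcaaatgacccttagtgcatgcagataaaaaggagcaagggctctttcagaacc
There are 16 CpG in the Rarb stretch, 6 in Rxrg, 40 in Aldh1a2 and 1 in Aldh1a1. Rxrg and Aldh1a1 each have 2 annotated start windows, and the table does not say which transcript a window belongs to.

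The values are the authors' lists of regions near transcription starts, each region with a score over input whose scale is not given in the sources used here. A score is therefore ranked only within its own list. Its percentile is the share of that list's regions with a score at or below it, ties taking their mean rank. The H3K4me3 list held 13142 regions with a median width of 6.4 kb, and the H3K27me3 list held 8219 with a median of 12.4 kb. For H3K27ac the list held 9781 regions (median 5.3 kb), and for Pol II 7799 (median 4.9 kb). The lowest score in each list was 2.0, so a gene with no row has no listed region, which does not show that the mark was absent. As a check on the labelled cells, all 12 markers of medium spiny neurons had H3K4me3, H3K27ac and Pol II regions, and 5 of them (Drd1, Drd2, Adora2a, Penk and Tac1) had H3K27me3 as well. None of 5 interneuron, 5 astrocyte, 5 microglial, 5 endothelial or mural and 5 meningeal markers had an H3K27ac or Pol II region. Of the 5 oligodendrocyte markers 1, the myelin gene Mbp, had both.

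The receptor genes and the genes that make or carry the ligand stood apart in these lists. All 6 receptor genes had both H3K4me3 and H3K27ac, and 4 of them, Rarb, Rarg, Rxrg and Rxrb, also had Pol II. The 3 Aldh1a genes and Crabp1 all had H3K27me3, and none of these 4 genes had H3K27ac or Pol II. Over the 10 genes, 9 had H3K4me3, against 68.4% of all coding genes. H3K27me3 was listed at 5 of the 10, against 42.5% of coding genes. H3K27ac was listed at 6 of the 10, against 51.5%, and Pol II at 4 of the 10, against 41.7%. With 10 genes, counts for single marks were not far from the background, and the genes differed in how the marks were combined.

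**Figure D1:**
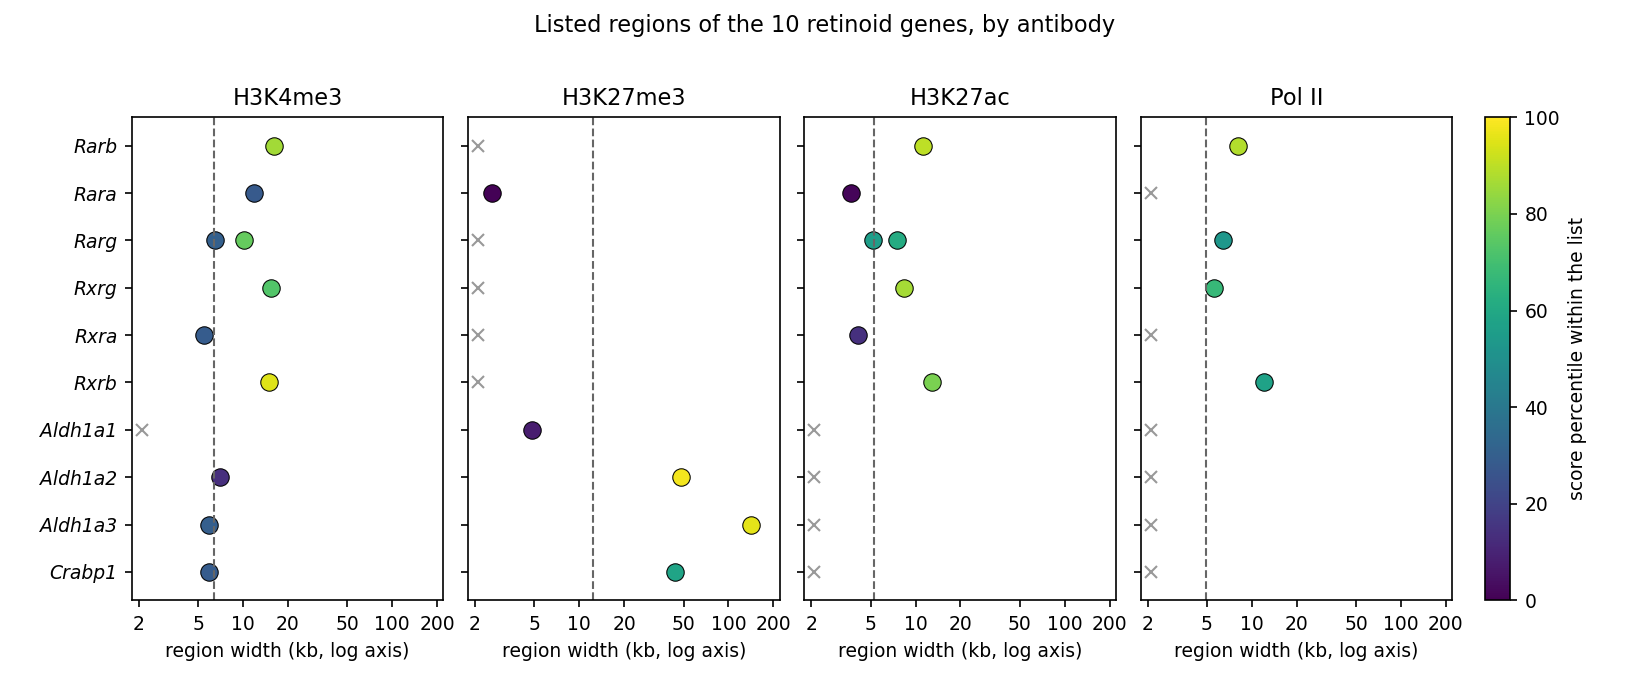
Listed regions of the 10 retinoid genes, 1 panel per antibody; the log axis gives region width in kb, colour gives the score percentile within the list, crosses mark genes with no listed region, and dashed lines mark the list's median width. The 6 receptor genes are the ones in the H3K27ac panel, and the H3K27me3 panel holds the other 4 genes and Rara, whose region is 2.6 kb wide, while Aldh1a3 has the widest region at 141.1 kb.

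The combination of H3K4me3, H3K27ac and Pol II without H3K27me3 was found at Rarb, Rarg, Rxrg and Rxrb, 4 of the 10 genes, against 34.8% of coding genes. H3K4me3 with H3K27ac alone was found at Rxra, 1 of the 10, against 6.24% of coding genes. H3K4me3 with H3K27me3, and with neither H3K27ac nor Pol II listed, was found at Aldh1a2, Aldh1a3 and Crabp1, 3 of the 10, against 13.4%. H3K27me3 alone was found at Aldh1a1, 1 of the 10, against 18.2%. Rara, 1 of the 10, had H3K4me3, H3K27me3 and H3K27ac without Pol II, a combination of 4.4% of coding genes. Counted regardless of other marks, H3K4me3 and H3K27me3 were both listed at 4 of the 10 genes, against 24.2%, and H3K27ac and H3K27me3 were both listed at 1, against 10.4%.

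Rarb encodes RAR beta, a ligand-activated transcription factor. Its H3K4me3 region, at chr14:17394501-17410700 in mm9 (counted from 1, as for every region here), was 16.2 kb wide and scored 10.1, at percentile 86.0 by score and 95.5 by width. The H3K27ac region inside it was 11.2 kb wide and scored 7.47, at percentiles 90.0 and 98.1. The Pol II region was 8.1 kb wide and scored 3.96, at percentiles 88.3 and 94.6. All 3 regions were thus among the wider and higher-scoring ones of their lists, and no H3K27me3 region was listed for the gene.

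Of the RAR paralogs, Rara, which encodes RAR alpha, ranked lowest by score. Its H3K4me3 region at the isoform 1 start, chr11:98794101-98805900, was 11.8 kb wide and scored 5.23, at percentile 27.9 by score and 90.1 by width. Its H3K27ac region was 3.7 kb wide and scored 2.05, and its H3K27me3 region was 2.6 kb wide and scored 2.01, so that both lay near the lowest score listed. The marks did not overlap. The H3K27me3 region lay to the 5′ side, and 2.8 kb separated it from the H3K27ac region, both inside the H3K4me3 region. A mark on a few nuclei and a weak mark on all nuclei cannot be told apart in pooled material, and whether the same chromosomes carried both marks was not measured.

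Rarg, which encodes RAR gamma, had regions at both of its listed starts. The isoform 2 start, at chr15:102071401-102081600, had a 10.2 kb H3K4me3 region with a score of 9.07, at percentile 76.2 by score and 85.8 by width. It also had a 7.5 kb H3K27ac region at 4.61 (61.1) and a 6.4 kb Pol II region at 2.84 (52.8). At the isoform 1 start, 2.6 kb further upstream between the H3K4me3 edges, the H3K4me3 region was 6.5 kb wide with a score of 5.46 (30.2) and the H3K27ac region 5.2 kb wide with a score of 4.31 (55.6). No Pol II region was listed at that upstream start. Within each of the 3 lists, Rarb thus ranked above Rarg and Rara by score and by width.

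Rxrg encodes RXR gamma, a partner of RARs and of several other nuclear receptors. Its H3K4me3 region at the isoform 1 start, chr1:169525801-169541100, was 15.3 kb wide and scored 8.76, at percentile 72.7 by score and 94.8 by width. The H3K27ac region was 8.4 kb wide and scored 6.93, at percentiles 86.6 and 94.2. The Pol II region was 5.6 kb wide and scored 3.18, at percentiles 67.1 and 82.9. Like Rarb, Rxrg had no H3K27me3 region, and it ranked below Rarb in all 3 lists by score and by width.

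Rxra, which encodes RXR alpha, had narrow regions. Its H3K4me3 region at chr2:27530501-27536000 was 5.5 kb wide and scored 5.31 (percentile 28.8), and its H3K27ac region was 4.1 kb wide and scored 2.59 (13.8), with no Pol II region. Rxrb, which encodes RXR beta, ranked highest of the 6 receptors by H3K4me3 score, though below Rarb and Rxrg by width, with a 15.0 kb region at chr17:34157801-34172800 that scored 11.5 (95.2). Its H3K27ac region was 12.8 kb wide at a score of 6.07 (80.0), and its Pol II region 12.1 kb wide at 2.94 (57.6). All 3 Rxrb regions are also listed for Slc39a7, Ring1, H2-Ke6 and Mir219-1, so their width and score cannot be assigned to Rxrb. Setting that shared promoter aside, Rxrg ranked above Rxra in H3K4me3 and H3K27ac and was the other RXR gene with Pol II.

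The order of the receptors by score was Rxrb, Rarb, Rarg, Rxrg, Rxra and Rara in H3K4me3. It was Rarb, Rxrg, Rxrb, Rarg, Rxra and Rara in H3K27ac, and Rarb, Rxrg, Rxrb and Rarg in Pol II. Rarb and Rxrg therefore led the receptors by score in H3K27ac and Pol II and not in H3K4me3. By width the order was another one: Rxrb, at percentiles 98.8 in H3K27ac and 98.4 in Pol II, stood above Rarb at 98.1 and 94.6, and the Pol II region of Rarg, at 89.9, stood above that of Rxrg at 82.9. With 1 library each, no spread is known, and neighbours in these orders may not differ.

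**Figure D2:**
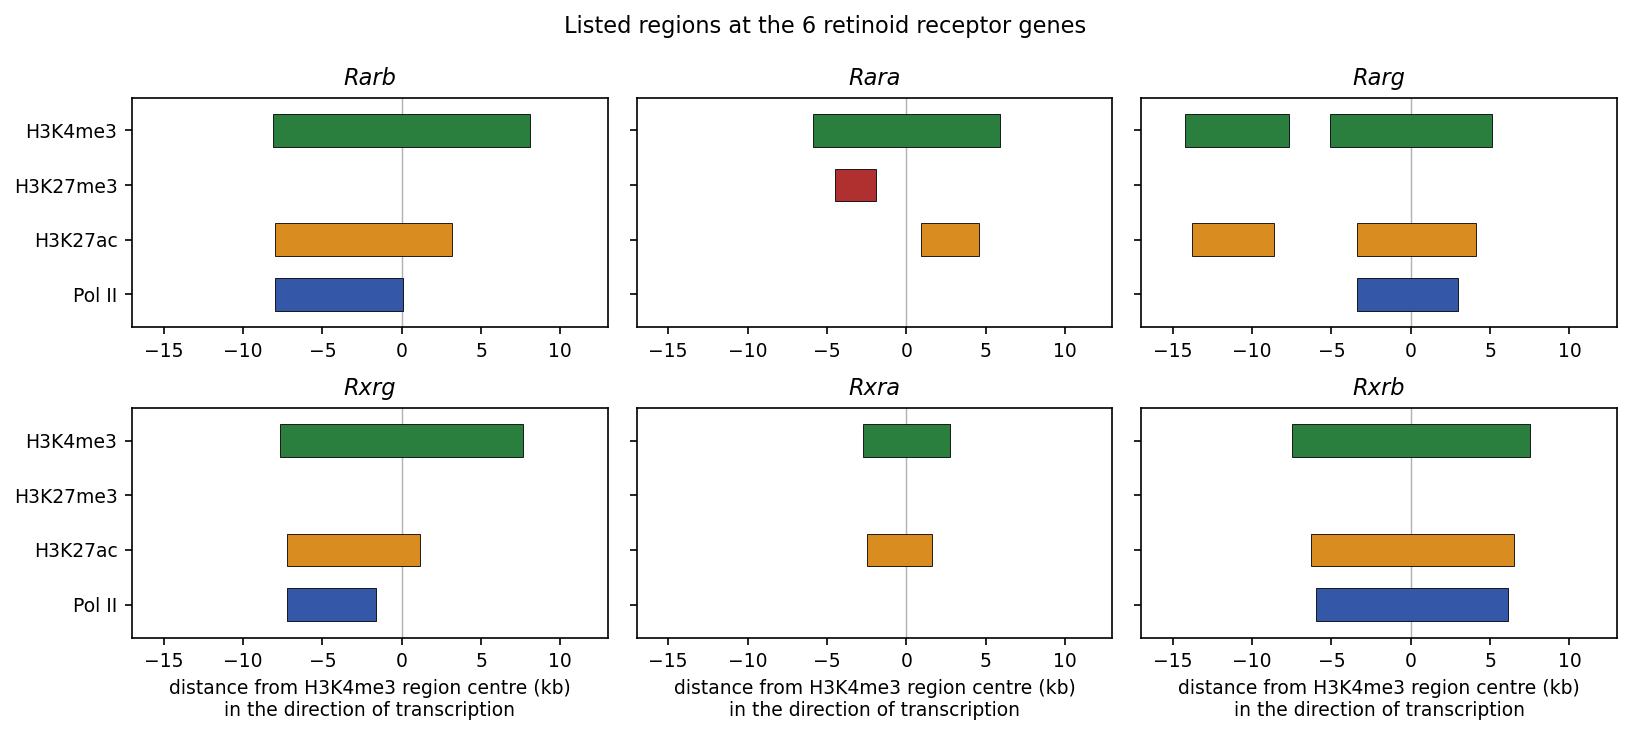
Listed regions of the 6 receptor genes, drawn to scale as bars by antibody against the distance in kb from the centre of the H3K4me3 region (for Rarg, that of the isoform 2 start), in the direction of transcription. At Rarb and Rxrg the H3K27ac and Pol II bars share the upstream edge of the H3K4me3 bar and end well before its downstream edge, by 4.9 and 8.0 kb at Rarb.

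Within the H3K4me3 regions, H3K27ac and Pol II lay towards the upstream side at Rarb and Rxrg. At Rarb, H3K27ac began 0.1 kb inside the upstream H3K4me3 edge and stopped 4.9 kb before the downstream edge, and Pol II stopped 8.0 kb before it. At Rxrg, both began 0.4 kb inside the upstream edge, and they stopped 6.5 kb (H3K27ac) and 9.3 kb (Pol II) before the downstream one. The paralogs had H3K27ac to within 1.0 kb of that edge at Rarg (isoform 2) and Rxrb, 1.1 kb at Rxra and 1.3 kb at Rara. At Rara, H3K27ac lay towards the downstream side, beginning 6.8 kb inside the upstream edge. Pol II stopped 2.1 kb before the downstream edge at Rarg and 1.4 kb before it at Rxrb. H3K27ac thus covered 69.1% of the H3K4me3 region at Rarb and 54.9% at Rxrg, against 73.5% at Rarg, 74.5% at Rxra, 85.3% at Rxrb and 31.4% at Rara.

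Coding genes with 1 unshared region per list gave the background for this placement. The downstream distance was a median of 0.8 kb for H3K27ac over 7509 genes and 1.3 kb for Pol II over 5871. For H3K27ac it was at least that of Rarb in 5.85% of these genes and at least that of Rxrg in 3.56%. For Pol II the shares were 4.02% and 2.91% in the same order. The distance goes with the width of the H3K4me3 region. Among genes with an H3K4me3 region at least as wide as the 15.3 kb of Rxrg, the median was 8.7 kb for H3K27ac (256 genes) and 10.3 kb for Pol II (264 genes). In that wide class, 76.6% of genes reached the H3K27ac distance of Rarb and 68.8% that of Rxrg. For Pol II the shares were 68.2% and 60.6%. Most genes of the wide class thus had an offset at least as long as those of Rarb and Rxrg. That class starts at the width of Rxrg and has no upper limit, so it was not matched to the widths of these genes. Rxrb, at 15.0 kb, had H3K27ac over nearly the whole of a region that 5 genes share.

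The surroundings of the receptor genes differed in H3K27me3. Rarb lay 2227 kb from the nearest listed H3K27me3 region, that of the olfactory receptor gene Olfr31. Over the 7317 coding genes with H3K4me3, H3K27ac and Pol II but no H3K27me3, the median of this distance was 74.3 kb, and 0.875% of them lay as far away as Rarb. Rxrg lay 40.1 kb from the 71.2 kb H3K27me3 region of Lmx1a, a transcription factor gene of dopamine neuron development, whose score of 10.1 stood at percentile 96.8. A distance of at least that of Rxrg was found at 66.6% of these genes. Rarg lay 5.1 kb from the H3K27me3 region of Itgb7 and Rxrb 5.6 kb from that of Col11a2 and H2-Oa, and distances at least as long were found at 93.2% and 92.9% of these genes. Rara lay 7.8 kb from the region of Cdc6 and Rxra 136.4 kb from that of Col5a1. Since only regions near starts are listed, these are distances to the nearest listed region.

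Across all coding genes, likeness to Rarb was measured as the distance between the 4 score percentiles, with 0 for no region. The genes nearest to Rarb were Dnajb5 (1.77 percentile points), Irak1bp1 (1.93) and Pafah1b1 (1.95). Those nearest to Rxrg were Grasp (2.36), Lasp1 (2.76) and Mapk10 (3.78). Rxrg lay 25.2 points from Rarb, and 1885 other coding genes lay closer to Rarb than that. Among the paralogs, Rxrb was 33.6, Rarg 46.7, Rxra 130 and Rara 138 points from Rarb. From Rxrg, Rarb lay at 25.2 points and Rxrb almost as near at 25.4, followed by Rarg at 29.4, Rxra at 108 and Rara at 117. The profiles of Rarb and Rxrg were shared by many genes.

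The 3 Aldh1a genes encode the enzymes that oxidise retinaldehyde to retinoic acid, and none had H3K27ac or Pol II. Aldh1a1 had 1 region, an H3K27me3 region at chr19:20674001-20678800 that was 4.8 kb wide with a score of 2.16, at percentile 8.1 by score and 12.5 by width. Its nearest H3K4me3 region, that of Zfand5, lay 664.9 kb away. Aldh1a2, the main enzyme of retinoic acid synthesis in the embryo, had the highest-ranked H3K27me3 region of the 10 genes. That region, chr9:71046901-71095100, was 48.2 kb wide and scored 11.3, at percentile 98.1, rank 156 of 8219. An H3K4me3 region of 7.0 kb with a score of 3.47 (percentile 13.5) lay wholly inside it.

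Aldh1a3 had the widest H3K27me3 region of the 10, 141.1 kb at chr7:73445801-73586900, with a score of 9.29 at percentile 95.8. It is also listed for the neighbouring kinase gene Lrrk1, whose own 5.3 kb H3K4me3 region lies inside it. The 5.9 kb H3K4me3 region of Aldh1a3 scored 5.43 (percentile 29.9) and made up 4.18% of the H3K27me3 region, which ran on for 123.8 kb on its downstream side. Crabp1, which encodes a cytosolic carrier of retinoic acid, had a 43.9 kb H3K27me3 region at chr9:54585201-54629100 with a score of 3.58 (percentile 58.5). This region is also listed for Wdr61. The 5.9 kb H3K4me3 region of Crabp1 scored 5.30 (percentile 28.8) and made up 13.4% of it. At Aldh1a2 the share was 14.5%.

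The H3K27me3 region of Crabp1 ended close to an acetylated neighbour. The H3K4me3 region of Wdr61, 5.6 kb wide with a score of 6.61 (percentile 43.7), lay 0.4 kb outside its upstream edge. The H3K27ac region of Wdr61, 4.7 kb wide, lay 0.7 kb outside that edge. Its score of 2.35 (percentile 8.26) was near the lowest score listed. Measured from the H3K4me3 region of each gene, the closest H3K27ac region lay 25.8 kb away at Crabp1, 262.9 kb away at Aldh1a2 (Grinl1a) and 255.9 kb away at Aldh1a3 (Asb7).

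**Figure D3:**
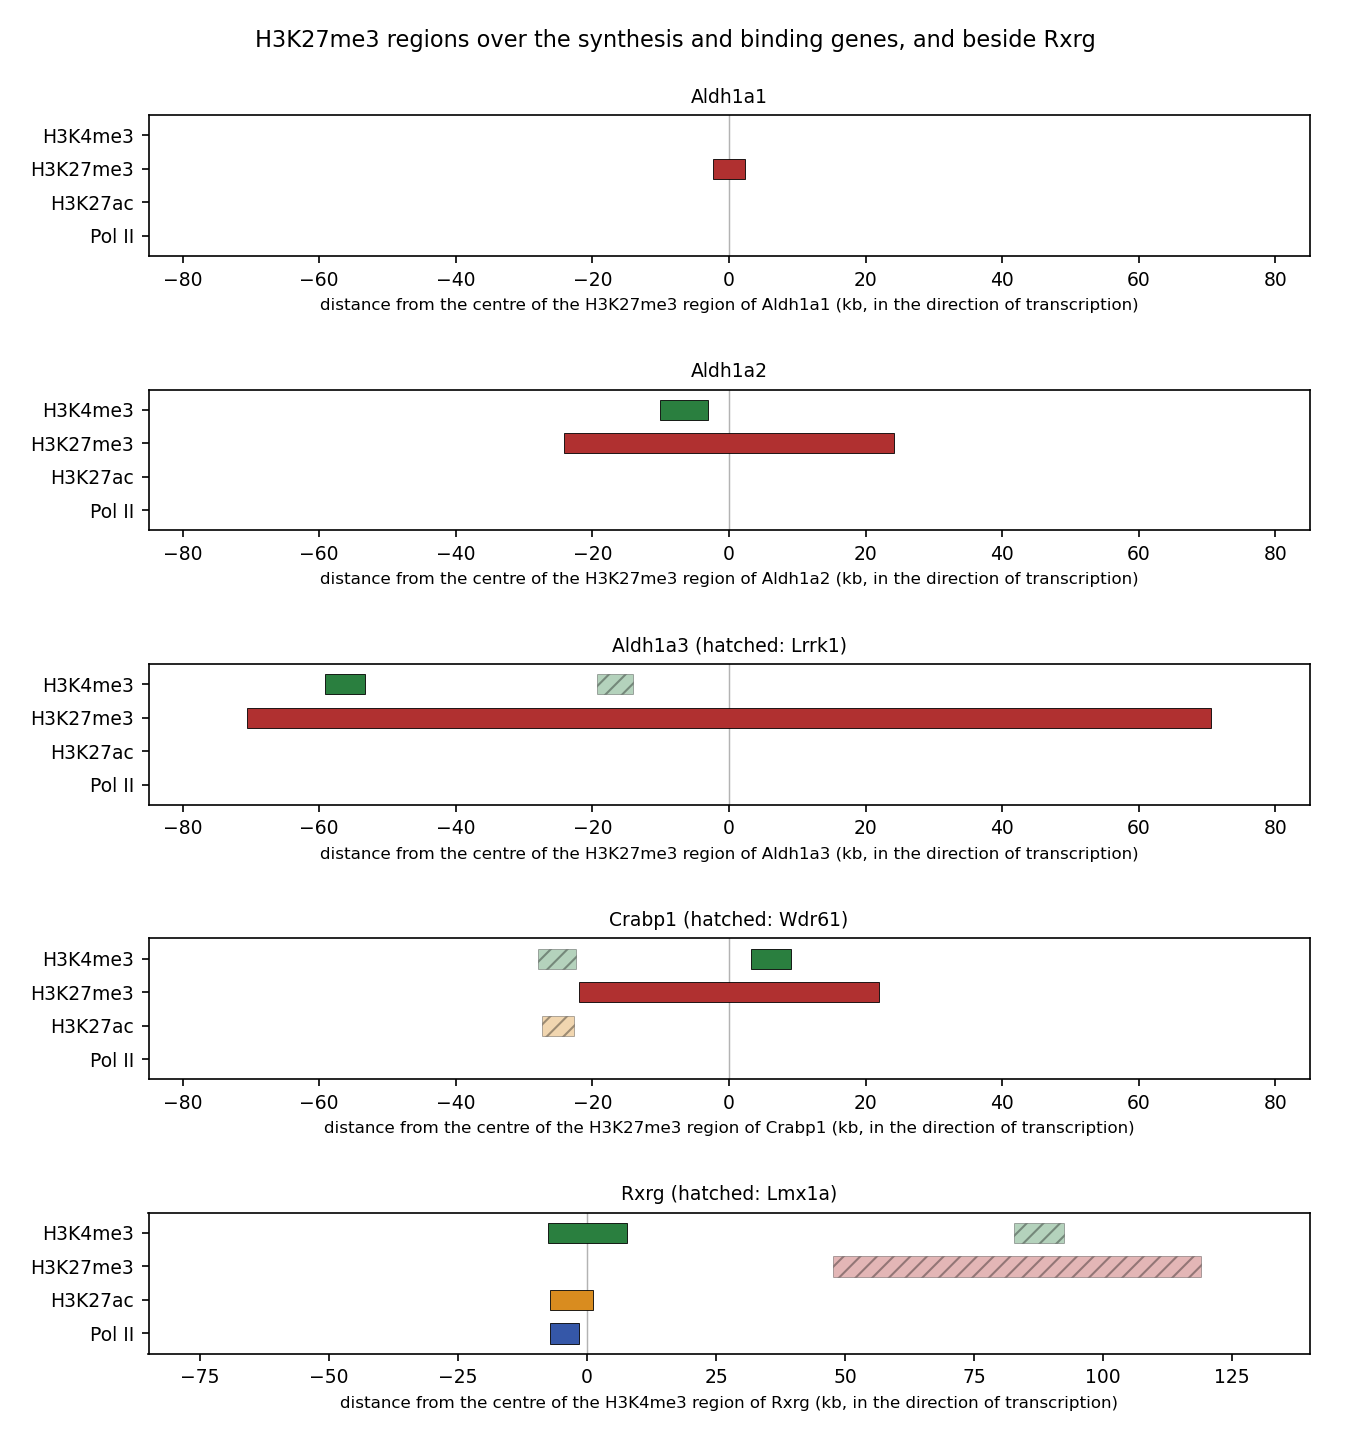
Regions at Aldh1a1, Aldh1a2, Aldh1a3, Crabp1 and Rxrg, drawn to scale by antibody; the horizontal axis is the distance in kb from the centre of the H3K27me3 region (for Rxrg, of the H3K4me3 region) in the direction of transcription, and hatched bars are those of the neighbour named above the panel. Short H3K4me3 bars of 5.9 to 7.0 kb sit inside H3K27me3 bars of 43.9 to 141.1 kb at 3 of the genes, whereas Rxrg has no H3K27me3 bar and the Lmx1a bar begins 40.1 kb away.

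Besides the 10 genes, 47 other genes of the pathway were counted by role. Each gene's highest score and widest region are given, which may be different regions. Of the 47, 34 had H3K4me3 (72.3%) and 27 H3K27me3 (57.4%), while H3K27ac was listed at 22 (46.8%) and Pol II at 18 (38.3%). Of the 8 coregulators that RARs and RXRs recruit, 6 were in the class of Rarb and Rxrg, with H3K4me3, H3K27ac and Pol II and no H3K27me3, against 34.8% of coding genes. Med1, which encodes a Mediator subunit, also had H3K27me3, and its H3K27ac and Pol II stood at percentiles 4.3 and 12.5. The coactivator gene Ncoa2 stood highest, with an H3K4me3 score of 13.1 (percentile 98.8), H3K27ac of 11.2 (98.8) and Pol II of 4.21 (91.8). The corepressor gene Ncor1 had an H3K27ac score of 6.63 (percentile 84.6). No region was listed for Ncoa6.

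Of 17 other genes of vitamin A conversion and storage, 12 had H3K4me3, 8 H3K27me3, 8 H3K27ac and 6 Pol II, shares near those of all coding genes. Rdh10, which encodes the enzyme that oxidises retinol to retinaldehyde, had no H3K27me3 and an H3K4me3 score of 14.9, at percentile 99.9. Its H3K27ac scored 7.07 (percentile 87.7) and its Pol II 3.7 (83.4). Dhrs3, which encodes the reductase that turns retinaldehyde back into retinol, was listed in all 4, with H3K27me3 at 2.32 (percentile 16.0) and H3K27ac at 3.98 (48.7). Lrat, which encodes the enzyme that esterifies retinol for storage, had H3K4me3 at 6.9 (percentile 47.7) with H3K27me3 at 8.66 (94.8). The alcohol dehydrogenase genes Adh1, Adh4 and Adh7 had H3K27me3 alone. Adh5 had no H3K27me3 but H3K4me3, H3K27ac at 3.12 (percentile 27.3) and Pol II at 2.62 (40.6).

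The 3 genes of retinoic acid breakdown, all cytochrome P450 genes, had H3K27me3 and neither H3K27ac nor Pol II. Cyp26b1 had a highest score of 10.5 (percentile 97.2) and a widest region of 50.8 kb. Cyp26a1 and Cyp26c1 shared a 64.9 kb region with a score of 8.61 (94.7), so these 3 genes are not 3 separate cases. Of 10 uptake, transport and binding genes, 8 had H3K27me3, 5 H3K4me3, 3 H3K27ac and 1 Pol II. Crabp2, the paralog of Crabp1, had an H3K27me3 score of 9.15 (percentile 95.7) and a widest region of 97.8 kb. Crabp1 stood at percentile 58.5 and 43.9 kb. Fabp5, which encodes a fatty acid binding protein that also carries retinoic acid, was the gene of this group with Pol II, at 2.85 (percentile 53.3), and its H3K4me3 score was 9.12 (76.7). No region was listed for the retinol transporter gene Stra6.

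Of 9 genes known to respond to retinoic acid, 8 had H3K4me3 and 7 had H3K27me3 (77.8%, against 42.5% of coding genes). H3K27ac and Pol II were each listed at 4 (44.4%), against 51.5% and 41.7% of coding genes. Meis2, a homeobox gene expressed in the striatum, had no H3K27me3. Its highest H3K27ac score was 11.3 (percentile 98.9) and its widest H3K27ac region 33.2 kb. Drd2, which encodes the dopamine D2 receptor of indirect-pathway neurons, had all 4. Its H3K27me3 scored 4.53 (percentile 74.0) and was up to 54.2 kb wide, and its H3K27ac scored 6.38 (82.7) and was up to 9.6 kb wide. The homeobox gene Hoxb1, an embryonic target, had an H3K27me3 score of 13.3 (percentile 99.7) and a widest region of 384.3 kb. A region this wide can be listed for several genes, so these values may not belong to Hoxb1 alone.

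**Figure D4:**
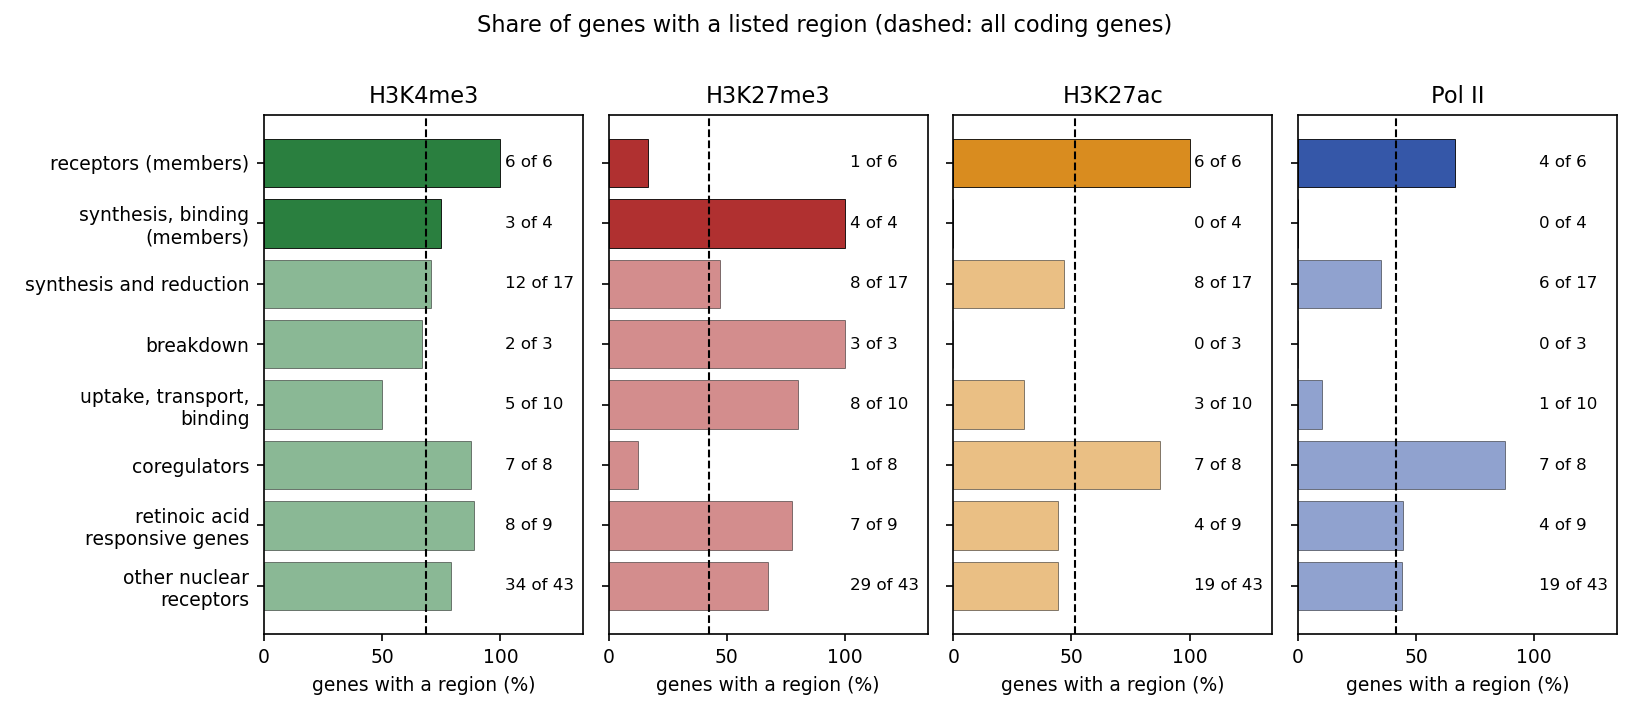
Share of genes with a listed region (bars, percent) by role, 1 panel per antibody, with counts beside the bars and the share of all coding genes as a dashed line; the upper pair of rows are the 10 retinoid genes. Receptors and coregulators have the longest H3K27ac bars, at 6 of 6 and 7 of 8 genes, and the 4 synthesis and binding genes and the 3 breakdown genes have none.

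The 43 other nuclear receptor genes gave the family setting. The class with H3K4me3, H3K27ac and Pol II but no H3K27me3 held 4 of the 6 retinoid receptors and 11 of these 43, against 34.8% of coding genes. H3K27me3 was listed at 1 of the 6 and at 29 of the 43 (67.4%), against 42.5% of coding genes, so the 43 were themselves above the background. H3K27ac was listed at 6 of the 6 and at 19 of the 43 (44.2%), against 51.5%. Those in the active class included the genes of the glucocorticoid receptor, Nr3c1 (H3K27ac score 10.3, percentile 97.9), of the mineralocorticoid receptor, Nr3c2 (11.6, 99.1), and of the thyroid hormone receptors, Thra (12.8, 99.6) and Thrb (9.99, 97.5). These exceeded Rarb, at percentile 90.0, and Rxrg, at 86.6. Those with H3K27me3 included Vdr, the vitamin D receptor gene, at 5.78 (percentile 83.6), Ppara at 10.6 (97.4) and Pparg at 4.98 (78.2). All of these also had H3K4me3, and Pparg had H3K27ac at 2.48 (11.1). The highest H3K27me3 score among the 43 was that of Nr5a1, a gene of steroidogenic tissues, at percentile 99.0.

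The promoter sequences were searched for direct repeats of a hexamer (AGGTCA or AGTTCA or GGGTCA or GGTTCA) on both strands with spacings of 1, 2 or 5 bases, in windows of 250 bases before and 50 after each start. Of 20488 windows of 16853 coding genes, 12 (0.0586%) held a repeat spaced by 5, 19 (0.0927%) by 2 and 38 (0.185%) by 1. Among the 10 genes, 9 have a window and Aldh1a3 has none. Rarb was the one with a match, the repeat in capitals in the sequence above, 53 to 37 bases before the start. This is the element through which RARs are known to act on Rarb itself. A match is a description of letters, and binding was not measured here.

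The 12 genes with the spaced-by-5 repeat were Blvrb, Cfap45, Cyp26a1, Gm1043, Gm13030, Hbb-y, Ppbp, Prokr2, Prss27, Rarb, Syndig1 and Tnfsf13b. Of these 12, 3 (Rarb, Blvrb and Syndig1) had the 3 marks found at Rarb. H3K27ac and Pol II were each listed at 3 of the 12 (25.0%, against 51.8% and 42.2% of genes with a window). H3K4me3 was listed at 7 (58.3%, against 68.1%) and H3K27me3 at 7 (58.3%, against 41.9%). Rarb, Blvrb, Syndig1 and Cyp26a1 are shown because they carry the same arrangement under different marks, with the hexamers in capitals.
Rarb (chr14:16575513-16575529, gene on the minus strand): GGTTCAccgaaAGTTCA
Blvrb (chr7:27452399-27452415, gene on the plus strand): TGAACTggcttTGAACT
Syndig1 (chr2:149830616-149830632, gene on the plus strand): GGGTCAcccctAGTTCA
Cyp26a1 (chr19:37697776-37697792, gene on the plus strand): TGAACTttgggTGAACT
In Blvrb and Cyp26a1 the repeat is on the strand opposite to the gene and is printed as it reads along the gene's strand. Cyp26a1, the other well-known target among them, has H3K4me3 and H3K27me3 and neither H3K27ac nor Pol II.

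CpG content varied among genes with the same marks and was alike in some genes with different marks. The Rarb window had 17 CpG (percentile 57.2 of all windows, whose median was 14), and the Rxrg windows had 13 and 9. Both genes thus had CpG counts in the middle of the range. Rxrb, whose shared H3K4me3 region was almost as wide at 15.0 kb, had 37 and 47 (percentiles 92.9 and 98.3). The highest counts were 55 in a window of Rxra (percentile 99.7) and 50 in Aldh1a2 (99.0), an acetylated gene and a gene under H3K27me3. The lowest were 1 in a window of Rxra and 1 and 3 in the windows of Aldh1a1, the gene with no H3K4me3 region. Crabp1 had 17, the same count as Rarb, with H3K27me3 in place of H3K27ac.

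**Figure D5:**
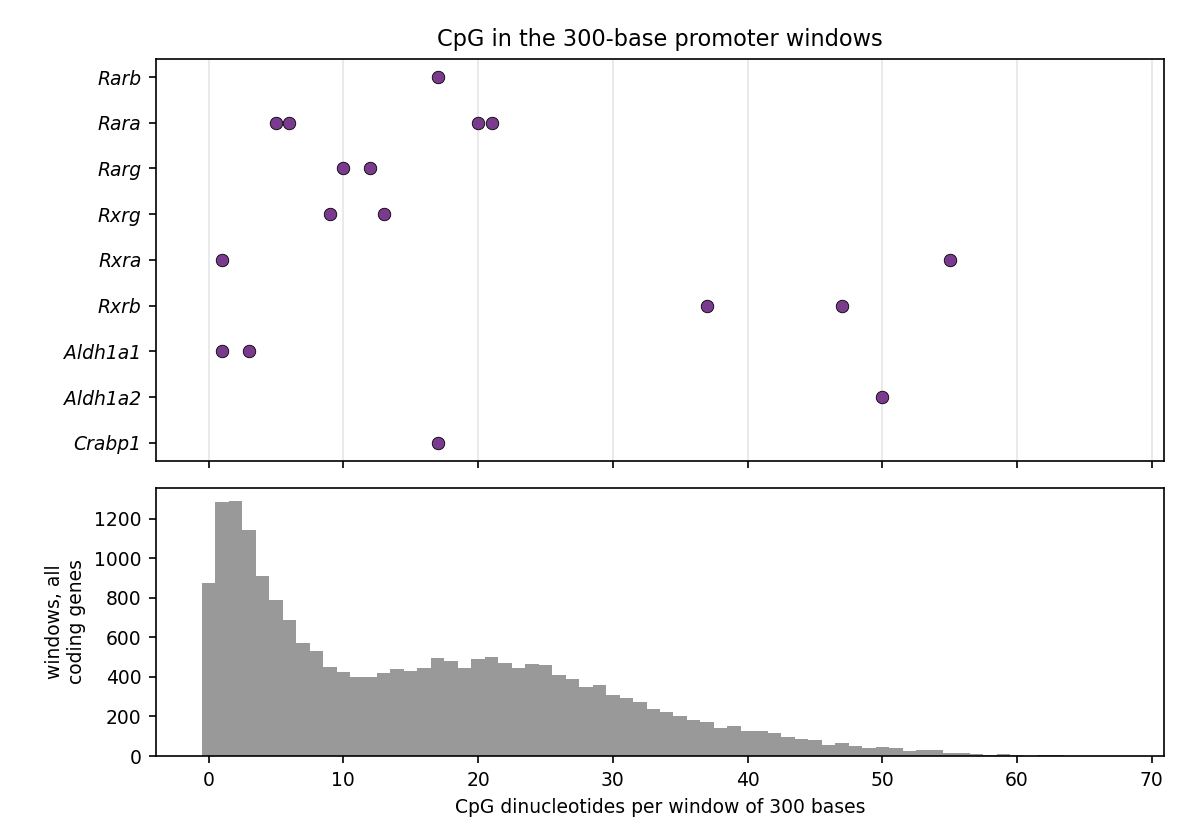
CpG dinucleotides per promoter window of 300 bases: points in the upper panel are the windows of 9 of the retinoid genes, 1 point per annotated start, and the lower panel is the number of windows of all coding genes at each count. Rarb at 17 and Rxrg at 9 and 13 lie near the middle, with Aldh1a1 at 1 and 3, and Aldh1a2 at 50.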

How the data were processed

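Chromatin immunoprecipitation and sequencing had been done for 4 antibodies, with 1 library each and 1 input. The deposited files hold the authors' regions over input, each with a score, a RefSeq transcript and a gene symbol; the scale of the score is not given in the sources used here. Bowtie 0.12.7, MACS 1.4 and build mm9 are named in the submitters' processing notes, with no role or order. The list names state a window of 3 kb around starts, and wider regions are listed whole. No track or read was used, so depth is not known, and the input entered only through the authors' lists.

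Between 97.4% and 98.0% of transcripts per list were found in a RefSeq table (GRCm38.p6) that gave names and biotypes. Any gene named by 1 or more regions of a list was counted as carrying that mark, with its highest score and widest region. Scores were ranked within 1 list only. With 1 library per antibody there was no test; shares stand beside those of all coding genes. The text names the 10 genes, the 3 coding genes nearest to Rarb and to Rxrg, and examples from each role list. The 10 genes and the lists were chosen with earlier results of these data known; the genes around Rarb and Rara, the genes with the direct repeat, the comparison within wide H3K4me3 regions and the role examples were singled out after their values were seen. Other settings were the upper 50% of each list, lists of the same length, regions of 1 symbol only, percentiles over coding genes, matching by symbol or transcript, and an overlap of 0.5. The scripts were tested on simulated data and used Python 3.11.15, numpy 2.4.6, pandas 2.3.3 and matplotlib 3.10.9. Results of some single genes in the role lists are not reported here.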

Additional observations from a re-analysis of the deposited data

How the results depend on the processing

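No paired analysis was possible because each antibody has 1 library. The 4 retinoid genes in the class with H3K4me3, H3K27ac and Pol II but no H3K27me3 stayed 4 (Rarb, Rarg, Rxrg and Rxrb) both when the upper 50% of each list by score was kept and when all lists were cut to the 7799 top regions. Several other counts fell because regions were taken out. Pol II stayed at 4 of the 10 genes in both settings, and the Pol II list, the shortest at 7799 regions, was not cut in the second. With lists of the same length, H3K27me3 also stayed at 27 of the 47 other pathway genes. With the upper 50%, H3K4me3 was listed at 4 of the 10 genes, H3K27me3 at 3, H3K4me3 with H3K27me3 at 0 and H3K27ac with H3K27me3 at 0. Of the 47 other pathway genes, 16 then had H3K4me3, 17 H3K27me3 and 13 H3K27ac, and of the 43 other nuclear receptor genes 17 had H3K4me3 and 10 Pol II. With lists of the same length, H3K4me3 was listed at 4 of the 10 genes, at 19 of the 47 and at 20 of the 43, and both pairs of marks at 0 of the 10. In both settings H3K27ac was listed at 4 of the 10 genes, and Rara and Rxra lost their H3K4me3 and H3K27ac regions. With regions of 1 symbol only, H3K27me3 was listed at 3 of the 10 genes, without Aldh1a3 and Crabp1, and at 15 of the 47, and Rxrb lost all 3 of its regions. With a required overlap of 0.5 of the narrower region, H3K27ac with H3K27me3 was at 0 of the 10. Matching by symbol or transcript changed none of 4 counts. Percentiles taken over coding genes were lower in 44 of 48 cases and higher in 4, by at most 8.95 points (Crabp1 H3K27me3, 49.6). The unknown depth of each library limits what a missing region means.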

Other observations

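Rarb and Rara each lie on a chromosome stretch with a topoisomerase, a thyroid hormone receptor and a Rev-erb gene, and the stretches were compared after their values were seen. Beside Rarb on chromosome 14, Top2b, which encodes DNA topoisomerase II beta, had H3K4me3 at 10.1 (percentile 86.5), H3K27ac at 8.03 (92.4) and Pol II at 3.75 (84.4), and its H3K4me3 region was 192.4 kb away. Thrb, 1079 kb from Rarb, had H3K27ac at 9.99 (97.5), and Nr1d2, 1656 kb away, had it at 4.96 (66.8). None of these 4 genes had an H3K27me3 region, which was listed at 42.5% of coding genes. Beside Rara on chromosome 11, Top2a, which encodes the topoisomerase II alpha of dividing cells, was 77.0 kb away and had H3K4me3 at 3.88 (percentile 16.3) as its only listed region. Thra, 176.1 kb away, had H3K27ac at 12.8 (99.6) and Nr1d1, 154.6 kb away, at 7.2 (88.4). Top2a, Thra and Nr1d1 had no H3K27me3 region either, and that of Rara stood at percentile 0.56. Rarb and Top2b thus both carried H3K4me3, H3K27ac and Pol II, while no Pol II region was listed for Rara or Top2a. On the stretch of Rara, Thra and Nr1d1 had Pol II at 4.11 (percentile 90.6) and 4.46 (94.3). The Pol II region nearest to Rara was that of another gene, Gjd3, 35.4 kb away with a score of 2.93 (57.1).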
